A study of Mus musculus with 12 samples.

Results

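Chemokine ligands are small secreted or membrane-bound proteins that direct the movement of leukocytes. The genes described here are the 32 Ccl, Cxcl, Xcl and Cx3cl ligands on the array, taken as every probe whose gene name in the scanner files was one of them. They were measured by 42 of the 55681 probes for genes and made up 32 of 34821 gene names. Probes that the scanner software called well above background on all 3 arrays of some group were kept, which left 36 of these 42 probes and 28 of the 32 genes. Ccl11, Ccl20, Ccl28 and Cxcl15 had no kept probe and were not tested.

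RNA of 12 samples, 3 to a group, was hybridised to one-colour Agilent arrays, 1 array a sample, and all samples carry the strain label B6C3Fe a/a-Csf1op/J. Wild-type (WT) mice and mice homozygous for the op mutation (op/op) received glyoxylate, which forms calcium oxalate crystals in the kidney, at 80 mg/kg for 6 days. Renal cells were then enriched from both genotypes by magnetic sorting for CD11b and CD11c. This mutation disrupts Csf1, which encodes macrophage colony-stimulating factor (M-CSF). Bone marrow derived macrophages (BMDM) were stimulated with LPS and GM-CSF to give M1 cells or with IL-4 and M-CSF to give M2 cells. Both renal groups were treated, so there was no untreated kidney, and the labels give neither the genotype nor the treatment of the marrow donors. Whether the 3 samples of a group stem from different mice or dishes is not stated, and the p-values cover only the spread among these arrays, which may be technical.

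The names CC, CXC, C and CX3C describe the spacing of the first cysteines of the protein. Inflammatory ligands such as CCL2 and CXCL2 are switched on in macrophages and injured epithelium through NF-kB, interferon-induced ligands such as CXCL10 through interferon response elements, and CCL17, CCL22 and CCL24 are commonly used as products of IL-4 stimulation. Homeostatic ligands such as CXCL12 and CXCL13 place cells within tissues. In bulk samples such as these, fewer cells of a type and less RNA per cell cannot be told apart.

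The stretches before the start site of 5 members are shown because Cxcl1, Cxcl2 and Cxcl3 are neighbouring genes with one shared motif, Cxcl10 holds motifs of both pathways and differed in both comparisons, and Ccl17 holds STAT motifs. RefSeq promoters (GRCm38.p6) were given for 23 of the 32 members. The 250 bases before each start were searched on both strands for an NF-kB motif (GGG, any 3 bases, TTCC) and a looser form (GGG, any 4 bases, TCC). They were also searched for an interferon response element or ISRE (GAAA, any 2 bases, GAAA) and STAT motifs (TTCNNNGAA, and TTC, any 4 bases, GAA). Matches are in capitals. These motifs can share bases: the palindrome in Cxcl1, Cxcl2 and Cxcl3 matches the NF-kB letters on both strands, shifted by 1 base.

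Cxcl1, chr5:90891125-90891244, + strand: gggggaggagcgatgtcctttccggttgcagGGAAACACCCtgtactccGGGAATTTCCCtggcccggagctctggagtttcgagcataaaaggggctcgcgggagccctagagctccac

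Cxcl2, chr5:90903779-90903898, + strand: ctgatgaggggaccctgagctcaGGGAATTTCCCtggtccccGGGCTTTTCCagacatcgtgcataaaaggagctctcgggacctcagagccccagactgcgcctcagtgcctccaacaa

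Cxcl3, chr5:90785981-90786100, + strand: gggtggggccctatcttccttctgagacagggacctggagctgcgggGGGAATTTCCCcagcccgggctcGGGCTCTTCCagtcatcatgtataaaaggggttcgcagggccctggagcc

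Cxcl10, chr5:92348890-92349139, - strand: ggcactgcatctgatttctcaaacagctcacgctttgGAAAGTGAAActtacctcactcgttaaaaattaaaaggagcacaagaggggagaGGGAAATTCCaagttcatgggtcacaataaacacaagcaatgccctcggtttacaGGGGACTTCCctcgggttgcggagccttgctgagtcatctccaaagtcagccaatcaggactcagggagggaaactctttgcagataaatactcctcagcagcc

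Ccl17, chr8:94810253-94810452, + strand: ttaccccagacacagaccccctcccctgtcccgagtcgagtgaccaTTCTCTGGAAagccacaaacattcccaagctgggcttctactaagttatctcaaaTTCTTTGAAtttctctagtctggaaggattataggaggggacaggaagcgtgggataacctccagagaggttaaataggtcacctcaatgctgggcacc

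The run GGGAATTTCC stood in all 3 promoters of Cxcl1, Cxcl2 and Cxcl3, with its first base at -71, -97 and -73 from the start site. The NF-kB letters with TTCC were found in 7 of the 23 member promoters (Ccl1, Ccl9, Ccl20, Cxcl1, Cxcl2, Cxcl3 and Cxcl10) and in 4.65% of all 32851 promoters in the table. The looser NF-kB form was found in 8 of the 23 (those 7 and Ccl22) and in 16.48% of all promoters. The ISRE letters were found in 3 (Ccl19, Cxcl10 and Cxcl14) against 2.98% of all promoters. TTCNNNGAA was found in 2 (Ccl17 and Cxcl14) against 7.02%, and TTC, any 4 bases, GAA in 1 (Ccl17) against 5.85%. In Cxcl10 the ISRE letters began at -213 and the NF-kB letters at -159 and -104. A match describes the letters and is no evidence of binding.

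The share of spots well above background lay between 76.3% and 79.5% on the WT arrays, 63.1% and 68.8% on the op/op arrays, 72.9% and 75.4% on the M1 arrays and 64.8% and 65.4% on the M2 arrays. The genotypes therefore differed in how many dim probes could be measured, and the part of this in the results was not tested. WT replicate 1 was alone on its slide, the other 5 renal arrays shared another slide and the 6 marrow arrays the last. WT and M1 arrays lay in the upper slide row and op/op and M2 arrays in the lower, so row and group cannot be told apart. Itgam, which encodes CD11b, was well above background on every array. Itgax, which encodes CD11c, was also well above background on every array and was lower in op/op cells by 1.62 on the log2 scale (limma, adjusted p = 0.000405). Csf1 itself did not pass the test (difference -0.42, SE 0.21, adjusted p = 0.106), and its probe measures the transcript, not the op mutation.

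Levels below are log2 scaled signals, that is, log2 of the processed signal minus the 75th percentile of the array, and they compare arrays for 1 probe, never 1 gene with another. Differences are between group means on that scale, tested with limma on all 12 arrays and adjusted over all genes tested by Benjamini and Hochberg, with a call at an adjusted p under 0.05. The brightest probe stood for each gene.

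**Figure D1:**
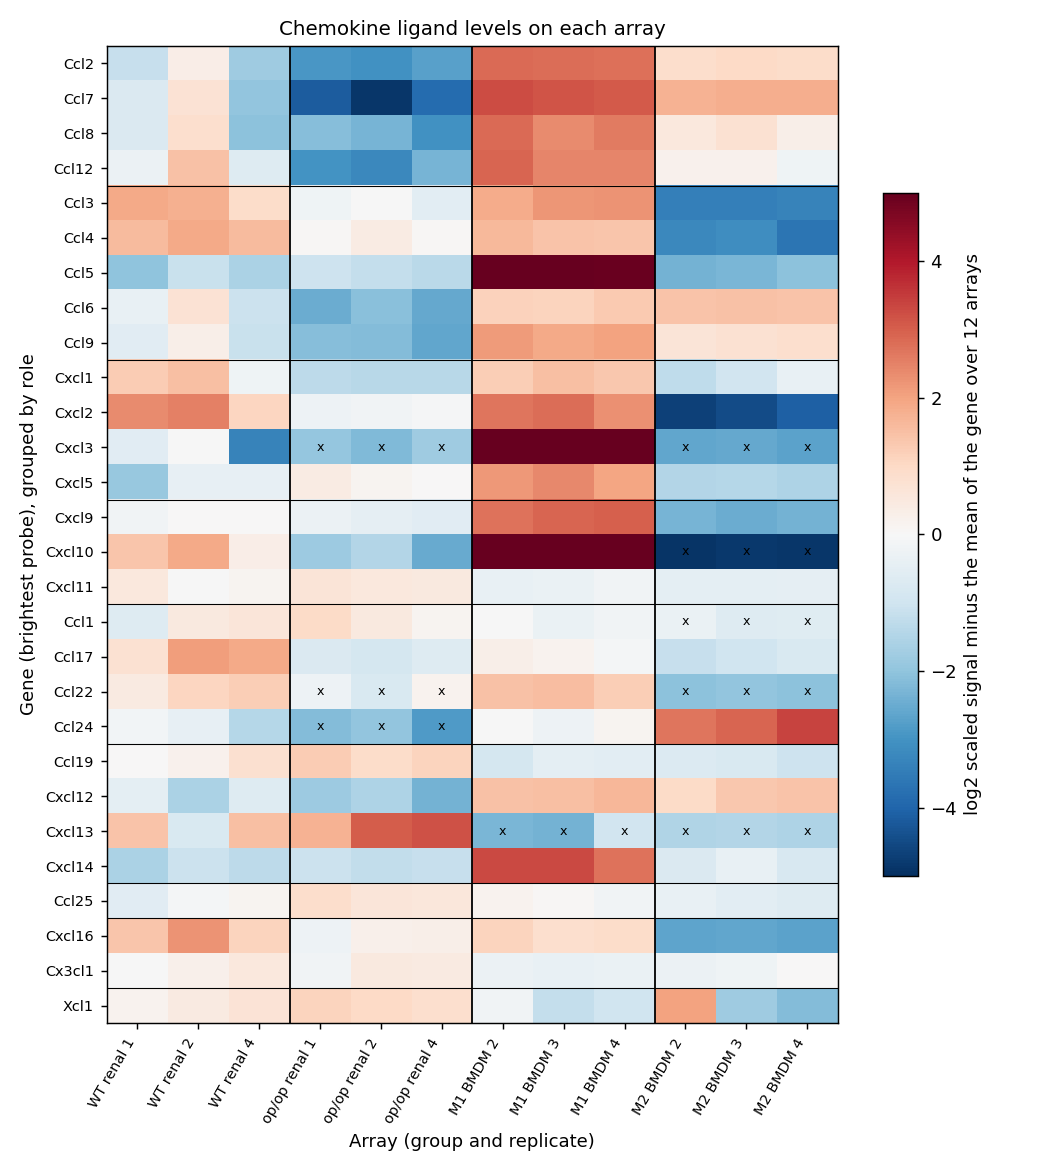
Levels of the 28 measured chemokine ligands on the 12 arrays, as log2 scaled signal minus the mean of the gene over all arrays (colour), with genes grouped by role; a cross marks groups in which no array was well above background. Ccl7 was lower on all 3 op/op arrays than on all 3 WT arrays, and Cxcl10, Cxcl3 and Ccl5 were highest on the 3 M1 arrays.

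The question of the renal comparison was how the ligands of sorted kidney cells differ between op/op and WT mice. Most measured ligands were lower in op/op cells: of 26 members tested, 17 fell, 4 rose and 5 did not pass the test. Over all 27086 genes tested, 59.4% were called, 28.5% lower and 30.9% higher. The members lower came to 65.4% of those tested and the members higher to 15.4%. The median difference of the members was -1.50, or -1.25 with the 2 members that have only a bound set at it, beside 0.16 over all genes tested. The groups did not overlap for 16 of the 17 lower members and for all 4 higher members. Of the 5 members not called, only Xcl1 had groups that did not overlap. Over all genes tested, called or not, 58.8% had groups that did not overlap, 26.2% with op/op lower and 32.6% with op/op higher.

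**Figure D2:**
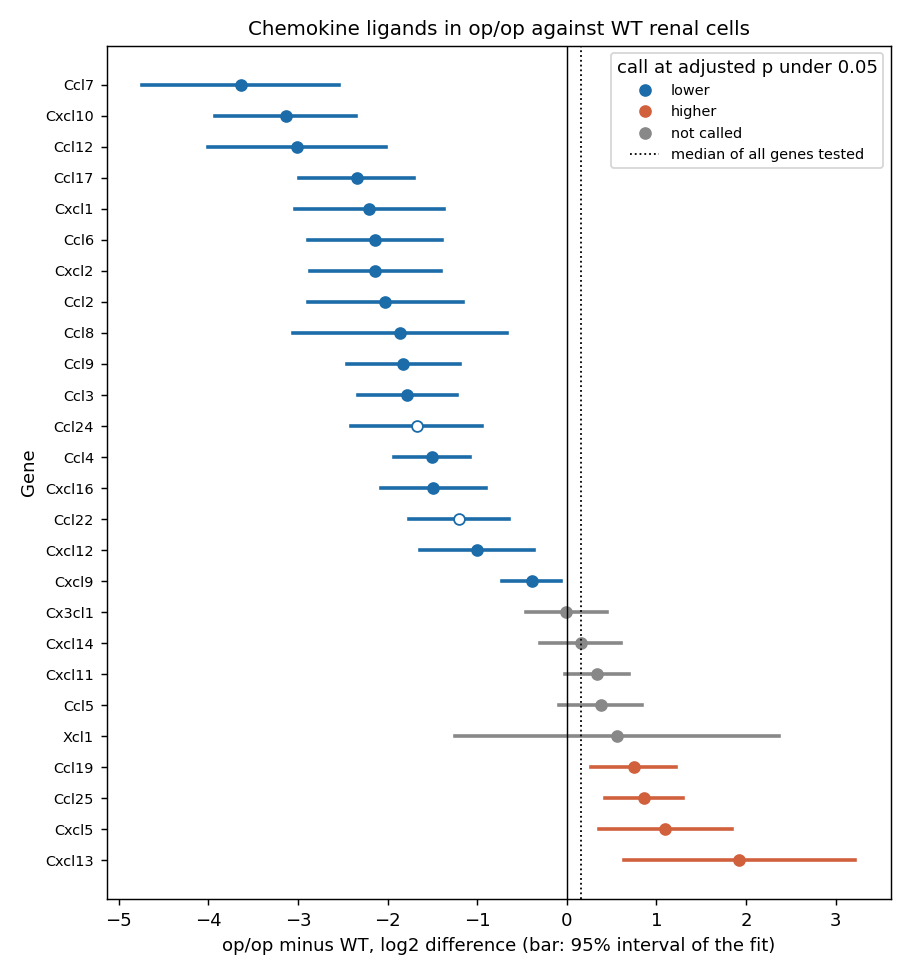
Difference between op/op and WT renal cells for the 26 tested ligands (x axis, log2 difference; bars, 95% intervals of the limma fit; open points, no op/op array well above background; dotted line, median of all genes tested). Ccl7, Cxcl10 and Ccl12 lie farthest to the left, and Cxcl13, Cxcl5, Ccl25 and Ccl19 lie to the right of 0.

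All 4 monocyte attractants fell. Ccl7, a ligand of the monocyte receptor CCR2, had levels of 2.15, 3.56 and 0.91 in WT replicates 1, 2 and 4 and -1.32, -1.99 and -0.99 in op/op replicates 1, 2 and 4. Every op/op array was below every WT array, and the difference was -3.64 (SE 0.50, adjusted p = 0.000622), or 12.4-fold lower. Its probe lies at chr11:81860656-81860715 (mm9), within a run of ligand genes that also holds Ccl2, Ccl12, Ccl8 and Ccl1.

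Ccl12, another CCR2 ligand, had levels of 1.45, 3.22 and 1.11 in WT and -1.24, -1.46 and -0.57 in op/op cells. The groups were apart, with WT replicate 2 the highest, and the difference was -3.01 (SE 0.45, adjusted p = 0.00084), or 8.08-fold lower. Ccl2, the main CCR2 ligand, fell by 2.03 (adjusted p = 0.00227). Ccl8 fell by 1.86 (adjusted p = 0.0135), with 2 of 3 op/op arrays well above background, and the difference was -1.12 without WT replicate 2 (adjusted p = 0.0339) and -0.96 with normexp background correction (adjusted p = 0.0452).

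Of the 5 inflammatory CC ligands Ccl3, Ccl4, Ccl5, Ccl6 and Ccl9, 4 fell and Ccl5 did not pass the test. Ccl6, a CCR1 ligand made by mouse myeloid cells, had levels of 2.61, 3.70 and 1.92 in WT and 0.51, 0.89 and 0.42 in op/op cells. All op/op arrays were below all WT arrays, and the difference was -2.14 (SE 0.34, adjusted p = 0.00106), or 4.41-fold lower. Ccl9, its near neighbour on the chromosome, fell by 1.82, Ccl3 by 1.78 and Ccl4 by 1.50. Ccl5, made by T cells and macrophages, had levels of 0.90, 1.81 and 1.36 in WT and 1.88, 1.73 and 1.58 in op/op cells. These groups overlapped, and the 95% interval of its difference ran from -0.09 to 0.84 (difference 0.38, adjusted p = 0.144). Without WT replicate 2, the lone change of call among these 5, the Ccl5 difference was 0.60 (adjusted p = 0.0249).

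Neutrophil attractants, which act on CXCR2, moved in opposite directions. Cxcl1 had levels of 4.13, 4.39 and 2.66 in WT and 1.55, 1.50 and 1.50 in op/op cells. The op/op arrays lay close together below all WT arrays, and the difference was -2.21 (SE 0.38, adjusted p = 0.00135), or 4.61-fold lower. Cxcl2, next to it on chromosome 5, fell by 2.14 (adjusted p = 0.000958). Cxcl5 had levels of -1.04, 0.47 and 0.48 in WT and 1.30, 1.0 and 0.91 in op/op cells. WT replicate 1 was the lowest, the groups did not overlap, and the rise was 1.10 (SE 0.34, adjusted p = 0.0168). It was 0.60 without WT replicate 1 (adjusted p = 0.0166) and lost its call without op/op replicate 1 (0.98, adjusted p = 0.062). Cxcl3 was well above background on 1 of 3 WT arrays and on no op/op array and was not tested. Of 8 neutrophil markers, 3 of the 7 tested rose and none fell, beside 30.9% of all genes called higher. Their summed level ranged from 4.71 to 6.14 in WT and from 5.10 to 5.63 in op/op cells. Their part in these results was not tested.

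Cxcl10, an interferon-induced ligand of CXCR3, a receptor found on T cells, had levels of 0.37, 0.87 and -0.71 in WT and -2.84, -2.49 and -3.55 in op/op cells. All op/op arrays were below all WT arrays, 2 of 3 of them well above background. The difference was -3.14 (SE 0.36, adjusted p = 0.000405), or 8.79-fold lower, its other probe gave -2.13, and normexp background correction gave -1.76 (adjusted p = 0.00027). Cxcl9, a second CXCR3 ligand, had levels of 1.35, 1.55 and 1.56 in WT and 1.25, 1.07 and 0.95 in op/op cells. The groups were narrowly apart and the difference was -0.39 (SE 0.15, adjusted p = 0.0416), a call lost without any one of WT replicates 2 and 4 and op/op replicates 2 and 4 (differences of -0.33 to -0.39). The dimmer Cxcl9 probe gave -2.12, and the mean of both probes -1.26. The call also needed the marrow arrays in the fit, as did those of Ccl19, Cxcl5 and Cxcl12.

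Cxcl11, the remaining CXCR3 ligand, was not called by its brightest probe (0.33, adjusted p = 0.0967), with op/op levels of 7.88, 7.76 and 7.73 and WT levels of 7.76, 7.24 and 7.36. The groups overlapped, quantile normalization turned the sign (-0.04), and without WT replicate 1 the difference was 0.49 (adjusted p = 0.0141). Its other probe rose by 0.70. The brightest Cxcl11 probe shares a run of 15 bases, on either strand, with 22 probes of other gene names, and 0.846% of all probes share with that many or more. The part of these probes' targets in the Cxcl11 signal was not tested.

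The 3 tested ligands of the type 2 group, Ccl17, Ccl22 and Ccl24, were lower in op/op cells. Ccl17, a ligand of CCR4 made by dendritic cells and IL-4 treated macrophages, had levels of -0.02, 1.30 and 1.10 in WT and -1.52, -1.69 and -1.44 in op/op cells. All op/op arrays were below all WT arrays, and the difference was -2.34 (SE 0.29, adjusted p = 0.000485), or 5.08-fold lower.

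Where no array of a group was well above background, the fold is given as a bound. It sets the bright group's mean against the dim group's mean of, for each array, the lowest signal among probes well above background or the dim probe's own signal, whichever is higher. Ccl22, the other CCR4 ligand, was well above background on all WT arrays and on no op/op array, with means of -3.18 and -4.39. It was at least 1.36-fold lower in op/op cells (difference -1.20, adjusted p = 0.00328). Ccl24, an eosinophil attractant, had means of -2.78 and -4.45 and was at least 1.81-fold lower (difference -1.68, adjusted p = 0.00252). Both were dim, both calls were lost with normexp background correction (-0.16 and -0.21), and both signs turned when dim signals were raised to a floor (0.46 and 0.18).

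Among the homeostatic ligands, Cxcl13 and Ccl19 rose, Cxcl12 fell and Cxcl14 did not pass the test. Cxcl13, which draws B cells through CXCR5, had levels of -3.25, -5.41 and -3.13 in WT and -2.90, -1.63 and -1.48 in op/op cells. It was well above background on 2 of 3 WT arrays, the groups were apart, and the rise was 1.92 (SE 0.59, adjusted p = 0.0165). The call was lost without WT replicate 2, the lowest array (1.18, adjusted p = 0.0565), and without op/op replicate 4 (1.66, adjusted p = 0.0559). With normexp background correction the rise was 0.88 (adjusted p = 0.00251). Ccl19, a CCR7 ligand that guides T cells and dendritic cells, had levels of 2.02, 2.21 and 2.79 in WT and 3.25, 2.91 and 3.11 in op/op cells. Every op/op array was above every WT array. The rise was 0.75 (SE 0.22, adjusted p = 0.0132), and both other Ccl19 probes rose too (0.86 and 1.24). 

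Markers of lymphocytes were also compared between the genotypes. Of 5 B cell markers, 4 rose and 1 fell, and their summed level ranged from 0.89 to 1.24 in WT and from 1.79 to 2.35 in op/op cells. Of 9 T and NK cell markers, 3 of the 6 tested rose and none fell, with summed levels of 4.02 to 4.58 and 5.20 to 5.61. Over all genes tested, 30.9% were called higher. All 5 B cell markers in WT and 4 in op/op cells were well above background on every array. Of the 9 T and NK cell markers, 6 in WT and 4 in op/op cells were. Cd3e, Lck and Prf1, whose means were higher in op/op cells, were also well above background on every M1 and M2 array. Their probes are thus not particular to samples with T cells. The part of lymphocytes in the rise of Cxcl13 and Ccl19 was not tested.

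Cxcl12, the ligand of CXCR4, had levels of 1.17, 0.10 and 1.03 in WT and -0.15, 0.14 and -0.70 in op/op cells. The groups overlapped, because WT replicate 2 lay below op/op replicate 2, and the difference was -1.0 (SE 0.29, adjusted p = 0.013). It was lost without op/op replicate 4 (-0.77, adjusted p = 0.0507). No renal array measured the other Cxcl12 probe well above background, so it was not tested (0.20), and the call was also lost with the mean of both probes (-0.40). Cxcl14 did not pass the test (0.16, 95% interval -0.30 to 0.61).

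Ccl25, which draws cells to the gut through CCR9, had levels of 3.38, 3.83 and 4.06 in WT and 4.81, 4.54 and 4.49 in op/op cells. All op/op arrays were above all WT arrays, with a rise of 0.86 (SE 0.20, adjusted p = 0.00463). Another Ccl25 probe rose by 0.95, and a dim one, above background on 1 WT array and no op/op array, differed by -0.77 and was not tested. The mean of the Ccl25 probes rose by 0.35 (adjusted p = 0.0477). Cxcl16, a membrane-bound ligand that also takes up oxidized lipoprotein, fell by 1.49 (adjusted p = 0.00157). Cx3cl1, membrane-bound fractalkine, did not pass the test (-0.01, 95% interval -0.46 to 0.45). Xcl1, a ligand made by T and NK cells, did not pass it either (0.56, 95% interval -1.25 to 2.37). Ccl1 was not well above background on every array of either renal group and was not tested.

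The WT arrays kept a similar order in many members: WT replicate 2 was the highest WT array for 12 of the 17 lower members, and WT replicate 4 the lowest for 12. Without WT replicate 1, which leaves 1 slide, 22 members were called. Macrophage markers also fell in op/op cells, 7 of 9 tested with none rising, beside 28.5% of all genes called lower and 30.9% higher. Their summed level ranged from 6.65 to 7.74 in WT and from 5.91 to 6.02 in op/op cells, with all 9 well above background on every renal array. Proximal tubule markers fell as well, 5 of 6 with none rising, beside the same shares of all genes. Their summed levels were 5.42 to 6.67 in WT and 3.55 to 4.48 in op/op cells. The part of either cell type in the fall of the ligands was not tested.

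**Figure D3:**
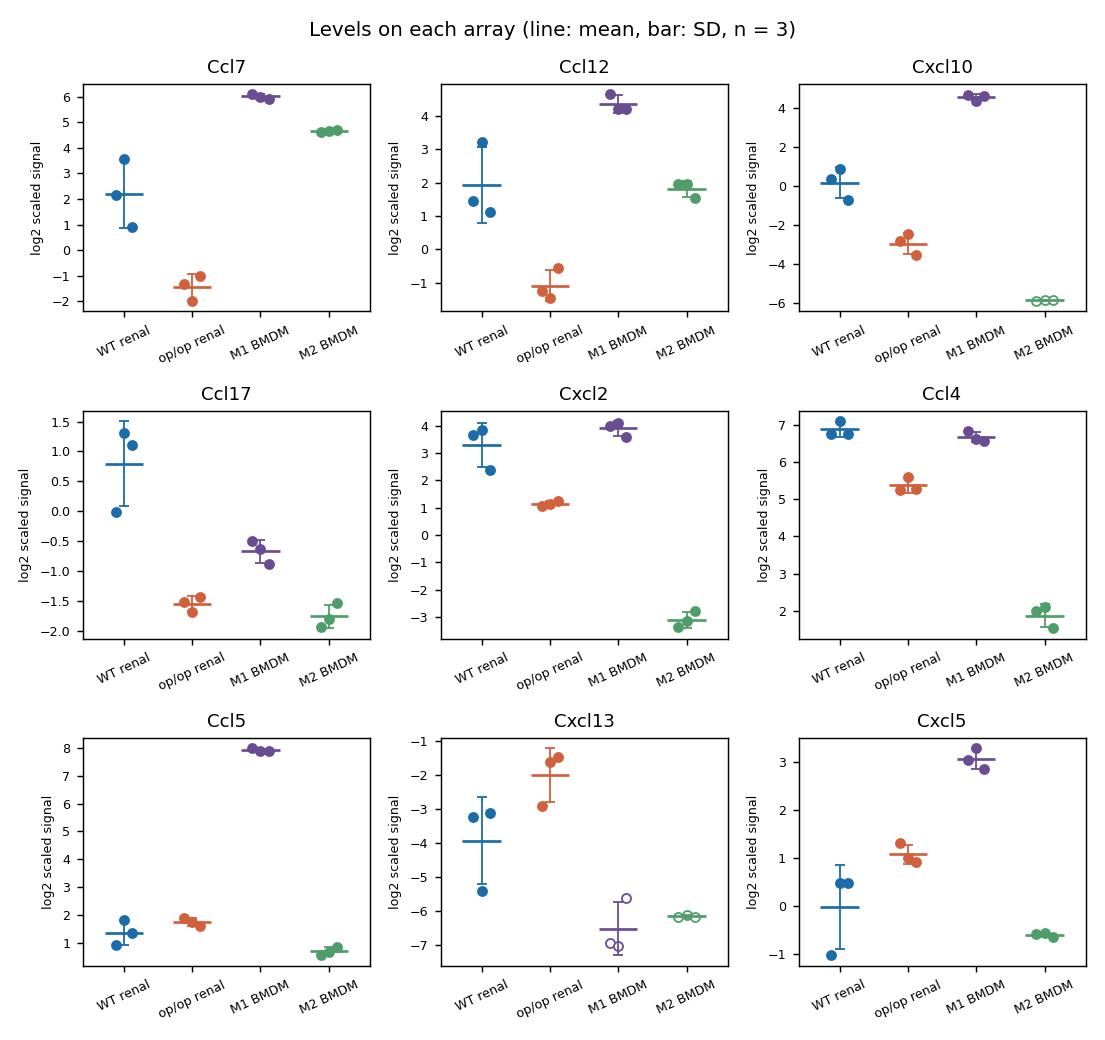
Levels (log2 scaled signal, y axis, a separate scale for each gene) of 9 ligands on each array of the 4 groups; points are arrays, lines are means, bars are SD (n = 3), and open points mark groups with no array well above background. Ccl7, Ccl12, Cxcl10, Ccl17, Cxcl2 and Ccl4 were lower in op/op cells, Cxcl13 and Cxcl5 were higher, and Ccl5 was set apart in M1 cells.

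The marrow comparison served as the reference for polarization. It set LPS with GM-CSF against IL-4 with M-CSF, so stimulus and growth factor cannot be told apart. No unstimulated culture was among the samples. Most ligands were higher in M1 cells: of 26 members tested, 17 rose, 1 fell and 8 did not pass the test. Over all 26196 genes tested, 17.8% were called, 8.86% higher in M1 and 8.93% higher in M2 cells. The members' median difference was 2.15, or 1.97 with 3 members set at their bound, beside 0.000143 over all genes tested. The groups did not overlap for 25 of the 26 tested members, called or not, among them all 17 higher members. The share over all genes tested was 51.3%, 24.7% with M1 higher and 26.6% with M1 lower. 

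Cxcl10 had levels of 4.69, 4.39 and 4.66 in M1 replicates 2, 3 and 4 and -5.92, -5.86 and -5.88 in M2 replicates 2, 3 and 4. All M1 arrays were far above all M2 arrays, none of which was well above background. By its brightest probe, Cxcl10 was at least 402-fold higher in M1 cells (means 4.58 and -5.89, adjusted p = 8.14e-09). Its other probe, not well above background in M2 cells either, gave a bound of at least 63.7-fold (means 1.92 and -6.00). 

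Cxcl9 had levels of 4.25, 4.45 and 4.53 in M1 and -0.80, -0.94 and -0.83 in M2 cells. The groups were apart by more than their spread, with a difference of 5.26 (SE 0.15, adjusted p = 4.53e-09). The dimmer Cxcl9 probe, not well above background in M2 cells, was at least 232-fold higher in M1 cells (means 3.79 and -6.05). Cxcl11 did not pass the test on its brightest probe (0.19, adjusted p = 0.532), and its other probe gave -0.02.

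All 4 measured neutrophil attractants rose in M1 cells. Cxcl3 had levels of 2.95, 2.67 and 2.48 in M1 and -5.81, -5.78 and -5.88 in M2 cells. No M2 array was well above background, and Cxcl3 was at least 109-fold higher (means 2.70 and -5.82, adjusted p = 2.34e-06). Cxcl2 had levels of 4.0, 4.10 and 3.59 in M1 and -3.38, -3.15 and -2.78 in M2 cells. All of these arrays were well above background and the groups far apart, with a difference of 7.0 (SE 0.33, adjusted p = 8.38e-08), or 128-fold. Cxcl5 rose by 3.67 and Cxcl1 by 2.21. Normexp background correction gave 5.67 for Cxcl3, and its order against Cxcl2 is not given. Of the 3 genes that share GGGAATTTCC before their start, Cxcl1 thus differed by 2.21 and Cxcl2 by 7.0, with a bound for Cxcl3.

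Of the inflammatory CC ligands, 4 of 5 rose. Ccl5 had levels of 7.99, 7.90 and 7.88 in M1 and 0.56, 0.65 and 0.86 in M2 cells. The M1 arrays lay within a narrow band far above M2, with a difference of 7.23 (SE 0.21, adjusted p = 4.61e-09), or 150-fold. Ccl3 had levels of 3.55, 3.91 and 3.92 in M1 and -1.74, -1.73 and -1.64 in M2 cells, again without overlap. Its difference was 5.50 (SE 0.25, adjusted p = 6.15e-08), or 45.3-fold, and Ccl4 rose by 4.80 and Ccl9 by 1.26. Ccl6 did not pass the test (-0.23, 95% interval -0.98 to 0.52).

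The monocyte attractants differed less. Ccl12 rose by 2.54, Ccl8 by 2.08 and Ccl2 by 1.87. Ccl7 levels were 6.11, 6.00 and 5.92 in M1 and 4.61, 4.67 and 4.68 in M2 cells. The arrays did not overlap, yet the difference of 1.35 missed the threshold (SE 0.50, adjusted p = 0.0905). The fit shares 1 spread per gene over the 4 groups, and the renal arrays varied more (median residual SD of the members 0.522, against 0.158 in marrow). With only the M1 and M2 arrays in the fit, Ccl7 was called. The Ccl8 call was lost without any one of M1 replicates 2 and 4 and M2 replicates 2 and 4 (differences of 1.96 to 2.09).

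The ligands of the type 2 group did not move as a group. Ccl24 was the 1 member higher in M2 cells, with levels of -2.14, -2.37 and -1.99 in M1 and 0.55, 0.76 and 1.25 in M2 cells. The groups were apart, and M1 was lower by a difference of -3.02 (SE 0.33, adjusted p = 6.16e-05), or 8.10-fold. Ccl22 was higher in M1 cells, with levels of -2.65, -2.54 and -2.86 against -6.16, -6.09 and -6.17. No M2 array was well above background, and the bound was at least 2.62-fold (adjusted p = 2.4e-06), although normexp background correction gave 1.42 and a floor on dim signals left a difference of 0.41 without a call. Ccl17 was also higher in M1 cells, by 1.09 (SE 0.29, adjusted p = 0.0224), with levels of -0.50, -0.63 and -0.88 against -1.93, -1.81 and -1.54. That call was lost without any one of M1 replicates 2 and 3 and M2 replicates 2 and 3 (differences of 1.01 to 1.07) and with replicate number as a block. Ccl1 was dim in both groups and did not pass the test (0.36, adjusted p = 0.525).

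Among the other ligands, Cxcl14 rose by 3.75 and Cxcl16 by 3.58 in M1 cells. Cxcl12 (0.29), Ccl19 (0.20), Ccl25 (0.55) and Cx3cl1 (-0.16) did not pass the test. Cxcl13 was not well above background on any marrow array. Xcl1 was well above background on 1 M1 array and 1 M2 array, and its M2 levels were -1.97, -5.78 and -6.17, with replicate 2 far above the other two; neither gene was tested.

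**Figure D4:**
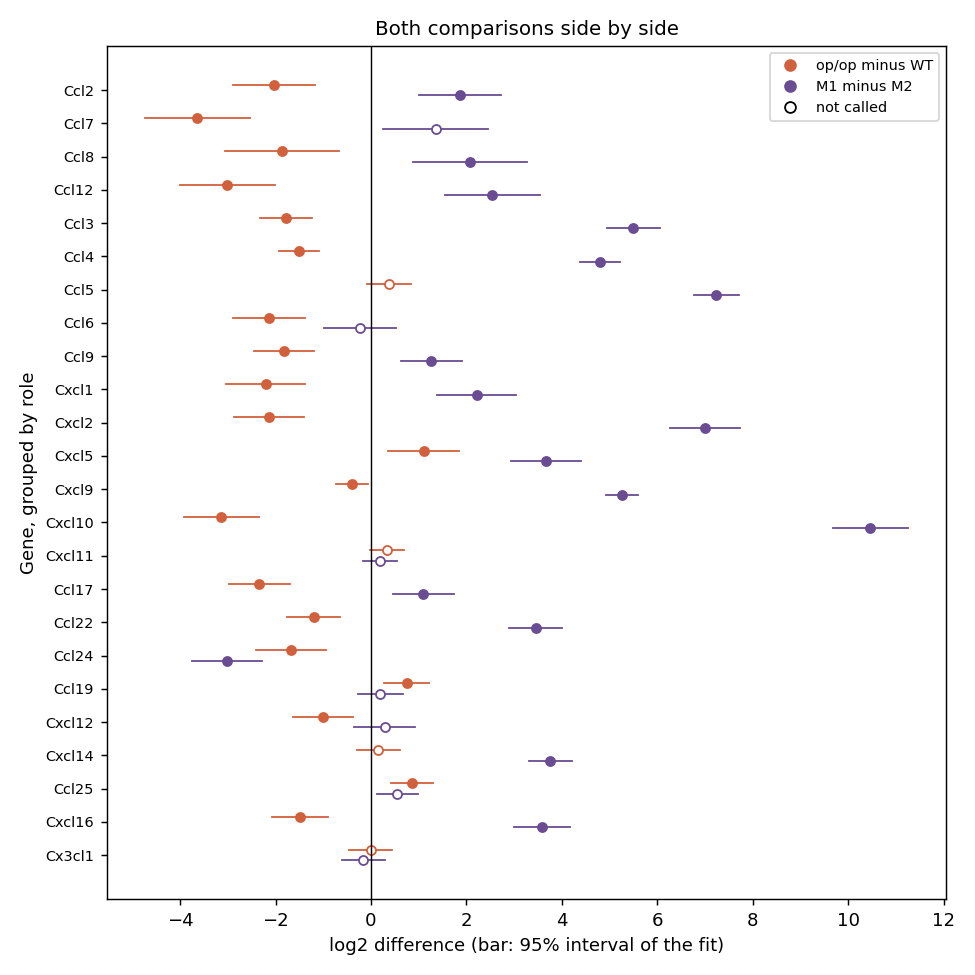
Differences of the 24 ligands tested in both comparisons, op/op minus WT (orange) and M1 minus M2 (purple), as log2 differences with 95% intervals of the limma fit (x axis) by gene (y axis); open points were not called. Where a group had no array well above background (Cxcl10 and Ccl22 in M2, Ccl22 and Ccl24 in op/op cells) the point is the fitted value, not a measured size. Most ligands lie to the left of 0 in op/op cells and to the right in M1 cells; Ccl24 lies to the left in both and Cxcl5 to the right in both.

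The renal and marrow comparisons share no samples. Of the 24 members tested in both, 13 fell in op/op cells and were higher in M1 than in M2 cells. Ccl24 was lower in op/op and in M1 cells, Ccl6, Ccl7 and Cxcl12 were lower in op/op cells and not called in M1, and Cxcl5 was higher in both op/op and M1 cells. Ccl5 and Cxcl14 were higher in M1 cells and not called between the genotypes. No test of this overlap was made, and the share of all genes with the same pattern was not computed. Taken singly, 17 of 26 tested members fell in op/op cells and 17 of 26 rose in M1 cells. These counts alone make many members meet both calls. Ccl7, lower by a difference of -3.64 in op/op cells, had a difference of 1.35 between M1 and M2 cells. Cxcl10, with a difference of -3.14 in op/op cells, had only bounds in the marrow comparison. It was at least 402-fold higher in M1 cells by its brightest probe and at least 63.7-fold by its other probe.

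Renal cells as a whole were compared with the marrow macrophages as the mean of WT and op/op minus the mean of M1 and M2. Each tissue lay on slides of its own, so tissue and slide cannot be told apart. Of 28 members tested, 13 were higher in renal cells, 14 were lower and only Cxcl1 was not called, a share of 96.4% called beside 82.1% of all 28289 genes (47.4% higher and 34.7% lower). The median of all genes was 0.32 here, and 0.075 with quantile normalization, so small rises are close to that shift. With slide as a random block, 20 members were called. The renal and marrow arrays did not overlap for 9 of the 28 tested members, all 9 of them called. The share over all genes tested was 46.7% (26.1% with renal higher and 20.6% with renal lower). Each tissue mean joins 2 unlike groups.

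All 4 monocyte attractants were lower in renal cells. Ccl7 ranged from -1.99 to 3.56 (median -0.04) on the 6 renal arrays and from 4.61 to 6.11 (median 5.30) on the 6 marrow arrays. The ranges did not overlap, and the difference was -4.94 (SE 0.36, adjusted p = 2.06e-07), or 30.8-fold lower. Ccl2 ranged from 0.30 to 3.66 (median 1.08) on the renal arrays and from 4.18 to 6.15 (median 5.20) on the marrow arrays, a difference of -3.73. Ccl8 differed by -3.13, with overlapping ranges. Cxcl3 and Ccl24 were also called lower in renal cells, but their fitted differences (-3.30 and -2.96) rest partly on background signal. Cxcl3 was well above background on 1 of 6 renal arrays and on no M2 array, and Ccl24 on no op/op array. With normexp background correction the differences were -2.02 and -1.52.

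Cxcl13 was higher in renal cells. It ranged from -5.41 to -1.48 on the renal arrays and was well above background on 5 of 6, against -7.02 to -5.63 and none of 6 in marrow. It was at least 2.86-fold higher in renal cells (means -2.97 and -6.34, adjusted p = 1.33e-05), and the fitted difference of 3.37 became 1.46 with normexp background correction and 0.86 with a floor on dim signals. Ccl4 (1.85), Cxcl2 (1.82), Cxcl16 (1.68), Ccl19 (1.46) and Ccl3 (1.29) were higher too. For Ccl4, Cxcl2, Cxcl16 and Ccl3 this mean hides the M2 cells, whose levels lay below those of every renal array. Cxcl10 gave no settled direction. Its brightest probe differed by -0.74 (adjusted p = 0.0178; -1.39 with normexp background correction, -1.90 with the floor), and the call was lost with slide as a random block (adjusted p = 0.235). Its other probe was called higher in renal cells by 1.92 (adjusted p = 2.07e-05), the mean of both was 0.59, and no M2 array measured either probe well above background.

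Receptors of the ligands were measured from a list of 18. Between the genotypes 14 were tested, of which 5 fell and 3 rose. Over all genes tested, 59.4% were called, 28.5% lower and 30.9% higher, so the receptors as a list were called about as often as other genes. Ccr1, the receptor of Ccl3, Ccl6 and Ccl9, had levels of -2.34, -2.14 and -3.61 in WT and -5.32, -5.58 and -5.18 in op/op cells. No op/op array was well above background, and the receptor was at least 1.91-fold lower (adjusted p = 0.000412). Cx3cr1, the fractalkine receptor, fell by 2.61, Ccr2 by 1.53 and Cxcr4 by 1.31. Ccr6, Ccr8 and Ccr10, the receptors of Ccl20, Ccl1 and Ccl28, rose by 1.25, 1.01 and 0.83. The Ccr6 groups overlapped, with op/op replicate 4 at -3.04 and 2 of 3 op/op arrays well above background (adjusted p = 0.0393). Ligands and receptors did not pair in one way. Ccl2, Ccl7 and Ccl12 and their receptor Ccr2 all fell, as did Cxcl12 and Cxcr4. Cxcl1 and Cxcl2 fell while Cxcr2 did not pass the test (-0.05), and Cxcl9 and Cxcl10 fell while Cxcr3 did not pass it (-0.33). Cxcl16 fell with its receptor Cxcr6 not called (-0.72), and Ccl19 and Ccl25 rose with Ccr7 (-0.51) and Ccr9 (0.53) not called. Cx3cr1 fell with Cx3cl1 not called (-0.01). Between M1 and M2 cells, 2 of 13 receptors rose and 3 fell, beside 8.86% and 8.93% of all genes.

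Of 3 atypical receptors tested between the genotypes, which bind chemokines without the usual signal, Ccrl2 fell by 1.78 and the other 2 did not pass the test. Of 3 other chemokine-like ligands tested, Pf4 and Cklf fell and Ccl27a did not pass the test. Pf4, a ligand stored in platelets and also made by macrophages, had levels of 0.90, 2.59 and -0.70 in WT and -5.45, -3.42 and -3.50 in op/op cells. No op/op array was well above background, and Pf4 was at least 22.7-fold lower (means 0.93 and -4.12, adjusted p = 0.000622). Of 5 platelet markers, a list that also holds Pf4, the other 2 tested, Gp1bb and Itga2b, rose by 0.71 and 0.94.

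Genes of the NF-kB route act upstream of many inflammatory ligands or share their regulation. In op/op cells 10 of 11 tested fell, and Relb rose by 0.74, beside 28.5% of all genes called lower and 30.9% higher. Tnfaip3, an inhibitor of the route, had levels of 3.27, 3.96 and 2.38 in WT and 0.94, 1.30 and 0.91 in op/op cells. The groups were apart, and it fell by 2.15 (adjusted p = 0.000719). Nfkb1 fell by 1.32, Il1b by 1.22 and Il1a was at least 3.81-fold lower. Between M1 and M2 cells, 9 of the 11 rose, among them Tnf by 4.96, and none fell, beside 8.86% and 8.93% of all genes.

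Of 9 genes of the interferon route, 6 fell in op/op cells and 1 rose, beside 28.5% and 30.9% of all genes. Ifngr1, the receptor for interferon gamma, fell by 1.25, Irf1 by 1.15, Stat2 by 1.18 and Ifnar1 by 1.08. Between M1 and M2 cells, 8 of these 9 rose and 1 fell, beside 8.86% and 8.93% of all genes. Irf7, a regulator of type I interferon genes, rose by 6.45. Of the IL-4 route, Irf4 fell by 1.60 and Stat6 by 0.87 in op/op cells, while the receptor Il4ra rose by 0.83. In M1 cells Irf4 was lower than in M2 cells, with a difference of -3.13, and Il4ra and Stat6 did not pass the test.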

How the data were processed

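RNA from 12 samples was amplified, labelled with Cy3 and hybridised, per the labels' protocols. Agilent Feature Extraction 10.7.3.1 gave spot intensity values, per the submitters' processing notes. The deposited value table holds log2 values whose columns follow the log2 scanner signals at r = 1 and have medians of -2.46 to -1.87; they served as an alternative. Spots of a probe were averaged, log2 values scaled by the 75th percentile of each array, and 30 probes with a poor spot left out. A gene entered a comparison if all arrays of either group measured it well above background. Differences were fitted with limma 3.58.1 (R 4.3.3; statmod 1.5.0 for the slide block). The members, roles and lists were chosen with earlier results of these data known. Values per array are given for the 6 members with the largest called difference per comparison, called members higher in op/op cells and members whose probes differ in sign, and up to 4 genes of each pathway list by p. Ccl17, Ccl22 and Ccl24 in M1 and M2 cells, and Ccl5, Cxcl9, Cxcl11, Cxcl2 and Ccl7 beyond that rule, were added after their values were seen. Alternatives were normexp (offset 50), quantile normalization, the deposited values, other filters, a floor, the mean of a gene's probes, only the groups compared, eBayes with trend, slide, replicate block, a 2-fold threshold and leaving out each array. Fitting every probe on its own was added after the data had been seen. Some genes counted in the lists are not reported here. The fit was tested on simulated data. Figures used Python 3.11.15 and matplotlib 3.10.9.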

Additional observations from a re-analysis of the deposited data

How the results depend on the processing

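The number of members called lay between 16 and 22 in op/op against WT (21 as reported), 13 and 20 in M1 against M2 (18) and 18 and 29 in renal against marrow (27) under all alternatives run. Leaving out 1 array gave 18 to 22, 16 to 17 and 26 to 27. In op/op against WT, 16 of 26 members kept their call under each of 17 alternatives that tested them. In M1 against M2, 20 of 26 did, and in renal against marrow 18 of 28 under 23. A turn of sign counted as a change only where either fit called the gene. A floor on dim signals turned Ccl22 (0.46) and Ccl24 (0.18) in op/op against WT and Ccl1 (-0.79) in M1 against M2. In renal against marrow, quantile normalization turned Ccl1 (-0.11) and the mean of a gene's probes turned Cxcl10 (0.59); the cause was not tested. With only the 2 groups compared in the fit, 9400 genes passed in op/op against WT (16093 as reported) and 9368 in M1 against M2 (4658), the spread then being that of the 2 groups alone. Deviations of samples with the same replicate number correlated at -0.16, 0.07 and -0.06 in the renal groups and -0.07, 0.14 and 0.08 in marrow. Taken around means of 3 arrays, these values cannot show whether equal numbers pair the samples. With the replicate block, 20, 17 and 24 members were called. Signal over background limits Ccl1, Ccl22, Ccl24, Cxcl3, Cxcl13 and Xcl1, and each group of 3 arrays limits the precision of all values.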
